A study of Mus musculus with 9 samples.

Results

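Nuclear pores are large channels through the nuclear envelope, built from nucleoporins arranged in outer, inner and membrane rings, a central channel, filaments on the cytoplasmic side and a basket on the nuclear side. Cargo passes through them bound to transport receptors: importin alpha and importin beta family proteins carry proteins in, and exportins carry proteins and RNAs out. The small GTPase Ran gives this traffic its direction, since it is loaded with GTP by Rcc1 in the nucleus and triggered to hydrolyse it by Rangap1 in the cytoplasm. The genes of this machinery were chosen by gene symbol: the Nup, Xpo, Ipo, Kpna, Kpnb and Tnpo series plus Ran, Rangap1, Ranbp1, Ranbp2, Rcc1, Ndc1, Pom121, Aaas, Seh1l, Tpr, Rae1 and Cse1l. This gave 56 of the 21958 genes of the expression table, and 54 of them were among the 13013 genes that passed the filter on low counts. Nup58 and Nup42 stand there under the symbols Nupl1 and Nupl2, so the rule did not take them in. No measured value enters the symbol rule, but the set was proposed with results of these comparisons known, so counts of members are given as a description beside the share of all genes.

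The cells were cultured progenitors from the periosteum, the membrane that covers bone, of the mouse mandible, and RNA was measured by sequencing. There were 3 libraries of Plagl1 fl/fl control cells at day 0 without induction, 3 of the same genotype after 3 days of osteoblast induction, and 3 of induced CTSK-iCre;Plagl1 fl/fl cells, called the mutant, also at day 3. Induced cultures received dexamethasone at 100 nM, ascorbic acid at 50 ug/ml and b-glycerophosphate at 5 mM. All 9 libraries carried the floxed Plagl1 allele, an imprinted zinc-finger factor gene, and the mutant added a Cre recombinase named for Ctsk, a gene active in periosteal progenitors and osteoclasts. No group held uninduced mutant cells, so the effect of induction within the mutant was not measured. Separate cultures or animals are not named for the libraries of a group. The p-values therefore weigh differences against a spread between libraries that may be purely technical.

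Libraries held 16204327 to 19859744 counted reads. Plagl1 itself was 43.9, 44.9 and 45.8 CPM (counts scaled to library size, here with TMM factors) in the control libraries of day 3 and 26.3, 24.2 and 24.8 CPM in the mutant, a log2 fold change of -0.84 (edgeR adjusted p = 7.6e-09). Which exons are floxed is not stated in the labels, so reads outside them would be counted in both genotypes. All 12 mesenchymal markers listed were measured, but so were all 15 macrophage markers, whose summed level was 14687.7 to 15112.4 CPM at day 0, 20873.5 to 22867.2 CPM in controls at day 3 and 21903.6 to 24028.7 CPM in the mutant. In controls at day 3, 11 of these 15 markers were higher than at day 0 and 4 lower, where 33.1% and 32.4% of all genes tested were. The chemokine receptor gene Cx3cr1, named for its large fall and so unlike most of the list, was at 79.0 to 87.2 CPM at day 0. It was at 0 to 0.206 CPM in the 6 later libraries. The 8 osteoclast markers summed to 82.8 to 97.7 CPM at day 0, 131 to 141 CPM in controls at day 3 and 157 to 160.4 CPM in the mutant. Of these, Calcr, Dcstamp, Ocstamp and Oscar had group means of 0 to 0.454 CPM and were not tested, while in controls Acp5 was higher and Mmp9, Atp6v0d2 and Nfatc1 lower at day 3, and Acp5 was higher again in the mutant. The 8 endothelial markers summed to 4.58 to 6.37 CPM at day 0, 6.02 to 6.33 CPM in controls at day 3 and 9.96 to 10.4 CPM in the mutant. In such bulk samples, fewer cells of a type and less RNA per cell cannot be told apart.

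Relative to all genes, RNA for nearly all tested genes of the set was lower in control cultures after 3 days of induction. Of the 54 members tested, 49 were lower at day 3, 0 were higher, and Nup93, Nup214, Nup210l, Kpna6 and Ipo13 did not pass the test (edgeR quasi-likelihood test, adjusted p below 0.05 over all genes). At an unadjusted p below 0.05, and by DESeq2, 0 members were higher as well. Among all genes tested, 32.4% were called lower and 33.1% higher. The largest falls among the transport receptors and the Ran cycle were those of Xpot, Kpna2, Rcc1 and Ran, and among the nucleoporins those of Nup210, Ndc1 and Nup107. The members' median log2 fold change was -0.47, a fold of 0.723, against 0.01 over all genes tested. For 22 members the called fall was at least 1.5-fold, which held for 14.2% of all genes, and for 49 members every day 3 library lay below every day 0 library, which held for 35.2%. Most members were well expressed, so a background limited to genes with a mean of at least 10 CPM was added after the data were seen. In it 36.2% of 9250 genes were lower and 33.5% higher, while 48 of 52 members were lower.

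Summed over all 56 genes, the level was 6661, 6630 and 6533 CPM at day 0 and 4484, 4621 and 4605 CPM in controls at day 3. The lowest day 0 library lay above the highest day 3 library. As a share of unscaled reads, the members took 0.696% to 0.710% at day 0 and 0.437% to 0.452% in controls at day 3. With scaling by library size alone, the median of all genes moved from 0.01 to -0.11 and that of the members to -0.59. A change of scaling shifts all genes nearly alike, so the distance between the medians, -0.48 under both scalings, was bound to stay. The split of all genes became 41.5% lower and 26.3% higher with library size alone.

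**Figure D1:**
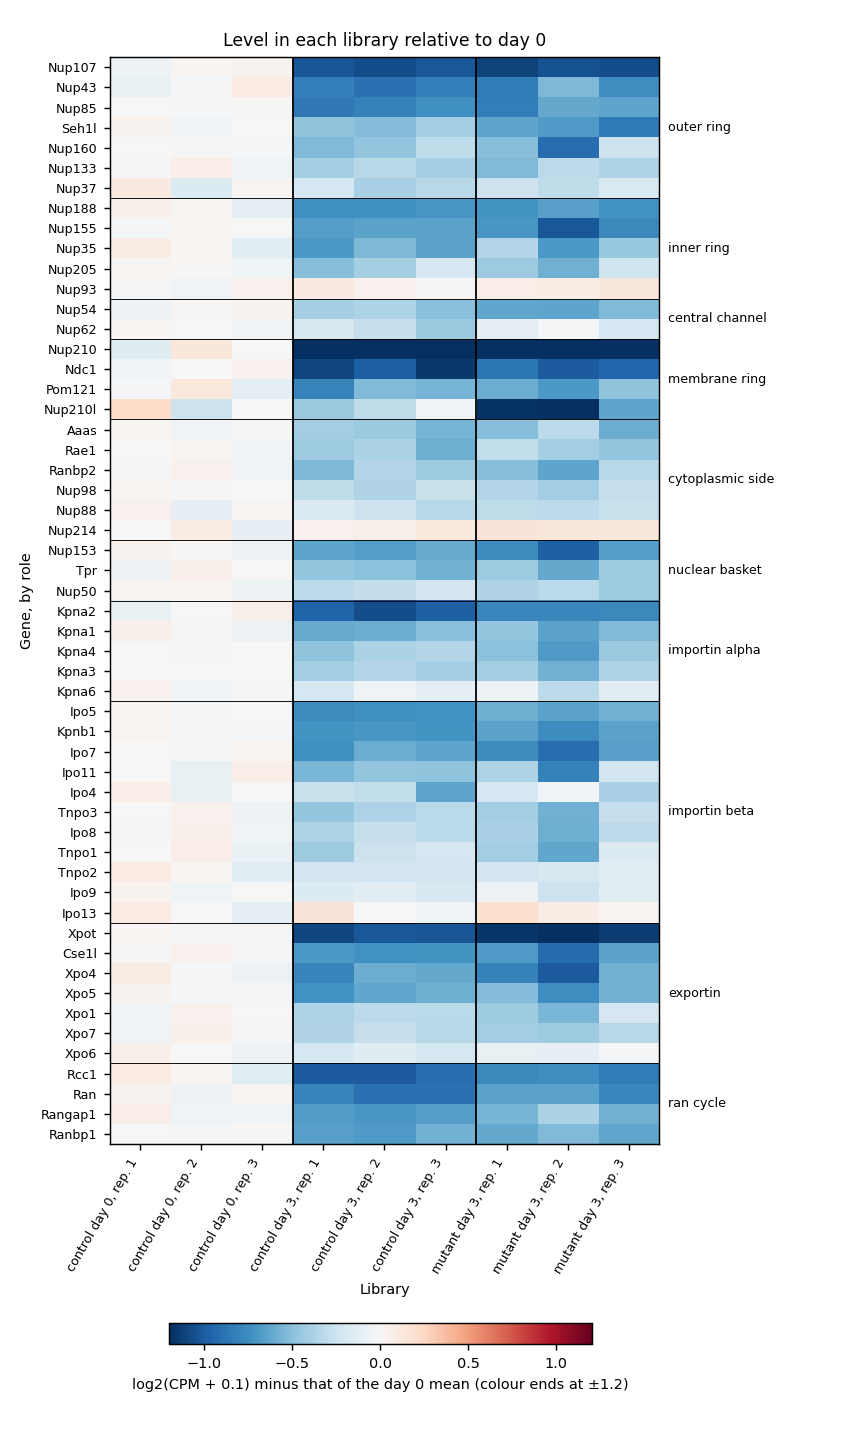
Level of each of the 54 tested genes (vertical, grouped by role) in each of the 9 libraries (horizontal), as log2(CPM + 0.1) minus that of the day 0 mean. Blue marks lower and red higher, with colours ending at 1.2; the 6 libraries of day 3 are blue for nearly all genes, while Nup93, Nup214 and Ipo13 stay pale.

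The first 250 bases before and 50 after the start were available for 45 of the 56 genes, as 52 windows from RefSeq on build GRCm38.p6. They were searched on both strands for 4 short motifs. The E-box CACGTG occurred in 9 of 52 member windows (17.3%), in 9.62% of the windows of tested genes and in 7.15% of all 32851 windows. The NRF1 core GCATGCGC occurred in 7 member windows (13.5%), against 4.92% of the windows of tested genes and 2.71% of all. The NF-Y box CCAAT occurred in 25 (48.1%), against 37.4% in both of those sets. The E2F forms TTTCCCGC and TTTGGCGC together occurred in 2 (3.85%), against 2.75% and 1.56%. A match is a description of letters, not a binding site.

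The 150 bases before the start are printed for 6 of the genes that carry such a motif there and whose values are given below. Each is printed 5′ to 3′ on the strand of its gene. The same stretch of Kpnb1, Tpr, Xpo1 and Nup93 also holds the NF-Y box and is not printed. All 6 printed genes were called lower in controls at day 3, as were 49 of the 54 members tested, whereas Nup93 was not. Members called lower had 46 of the 52 windows. Of these 46, 17.4% held the E-box, 15.2% the NRF1 core, 43.5% the NF-Y box and 4.35% an E2F form. A link between motif and fall was not tested. Capitals mark the motif: the E-box in Ran (chr5:129020006-129020155, plus strand) and Ranbp2 (chr10:58446702-58446851, plus strand), the NF-Y box in Kpna2 (chr11:106999526-106999675, minus strand), the NRF1 core in Nup107 (chr10:117792706-117792855, minus strand), where copies on both strands overlap, the NF-Y box followed by the overlapping NRF1 core in Nup62 (chr7:44815938-44816087, plus strand), and the E2F form in Nup210 (chr6:91116827-91116976, minus strand).
Ran: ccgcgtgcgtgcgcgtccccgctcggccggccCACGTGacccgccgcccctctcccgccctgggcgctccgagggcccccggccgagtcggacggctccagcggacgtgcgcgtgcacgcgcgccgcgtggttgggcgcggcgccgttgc
Ranbp2: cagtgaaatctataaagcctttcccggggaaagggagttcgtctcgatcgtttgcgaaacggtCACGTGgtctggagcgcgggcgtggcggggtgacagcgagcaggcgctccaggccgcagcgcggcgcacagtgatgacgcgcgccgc
Kpna2: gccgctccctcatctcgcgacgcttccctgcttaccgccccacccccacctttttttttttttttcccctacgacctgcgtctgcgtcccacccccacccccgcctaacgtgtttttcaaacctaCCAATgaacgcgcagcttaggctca
Nup107: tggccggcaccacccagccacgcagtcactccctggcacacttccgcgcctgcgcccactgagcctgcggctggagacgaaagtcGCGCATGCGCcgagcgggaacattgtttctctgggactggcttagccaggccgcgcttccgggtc
Nup62: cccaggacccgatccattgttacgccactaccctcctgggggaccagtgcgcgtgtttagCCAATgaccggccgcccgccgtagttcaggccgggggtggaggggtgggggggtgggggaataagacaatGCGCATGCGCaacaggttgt
Nup210: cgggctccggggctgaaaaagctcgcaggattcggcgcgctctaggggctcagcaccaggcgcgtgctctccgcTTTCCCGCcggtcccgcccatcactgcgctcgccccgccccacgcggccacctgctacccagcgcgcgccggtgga

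The outer ring, or Y complex, is the scaffold that lines each face of the pore. All 7 genes of the set placed in it, which are not the whole complex, were lower in controls at day 3. Their median log2 fold change was -0.47. Nup107, a core subunit of the complex, was at 57.8, 61.0 and 61.9 CPM at day 0 and at 29.5, 28.7 and 29.7 CPM at day 3. The groups were far apart, with a log2 fold change of -1.04 ± 0.06 (SE) and an edgeR adjusted p of 2.86e-12. Nup85, another subunit, was at 50.8, 49.6 and 51.1 CPM and then at 27.9, 28.7 and 30.2 CPM, a log2 fold change of -0.80 ± 0.07. Nup43 fell by 0.86 on the log2 scale, but it lies wholly inside Pcmt1 on the opposite strand, and no source used here gives the strand setting of the counting. Seh1l, which also serves a lysosomal signalling complex, was at 71.3, 67.5 and 69.6 CPM and then at 49.6, 48.4 and 52.2 CPM, a log2 fold change of -0.47 ± 0.06. Nup160, Nup133 and Nup37 fell by 0.44, 0.38 and 0.31.

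In the inner ring, which anchors the pore to the membrane and holds the channel proteins, 4 of 5 members were lower. Nup188, Nup155, Nup35 and Nup205 had log2 fold changes of -0.73, -0.65, -0.63 and -0.37. Nup93, the linker around which this ring is assembled, was at 66.5, 65.0 and 69.7 CPM at day 0, at 72.3, 69.5 and 67.9 CPM in controls at day 3 and at 70.9, 71.2 and 73.5 CPM in the mutant. Its groups overlapped between control days, and its log2 fold change was 0.06 ± 0.06 with TMM scaling and -0.06 with library size alone (edgeR adjusted p = 0.357 and 0.356). Its FPKM, a level per length without TMM scaling, was 16.7 ± 0.654 at day 0 and 16.0 ± 0.489 at day 3 (SD, n = 3).

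The membrane ring holds the pore proteins that cross the envelope, and 3 of its 4 members were lower. Ndc1, which is needed for pore insertion, was at 83.4, 85.6 and 89.5 CPM at day 0 and at 40.2, 43.6 and 38.6 CPM at day 3, a log2 fold change of -1.08 ± 0.06 (edgeR adjusted p = 1.32e-12). Nup210, known in the mouse for a role in muscle and T cells, was low throughout and had the largest relative fall of all members, from 6.03, 7.35 and 6.72 CPM to 0.708, 0.979 and 0.435 CPM. That is a log2 fold change of -3.20 ± 0.24 (edgeR adjusted p = 7.47e-11), with groups that do not overlap. Pom121 fell by 0.63. Nup210l, a paralog of Nup210 best known from testis, had 1.45 to 2.04 CPM at day 0 and 1.25 to 1.68 CPM at day 3, and its groups overlapped.

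The central channel holds the FG-repeat proteins that form the barrier. Nup62 was at 72.1, 70.8 and 69.2 CPM and then at 61.8, 58.2 and 51.8 CPM, a log2 fold change of -0.30 ± 0.07, and Nup54 fell by 0.42. The Nup62-related gene Nup62cl had 4 to 10 reads in each control library and 1 to 3 in the mutant, and was not tested.

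On the cytoplasmic side, where mRNA leaves and export complexes are taken apart, 5 of 6 members were lower. Ranbp2, the filament protein that binds Ran and carries SUMO ligase activity, was at 326, 343 and 322 CPM at day 0 and at 227, 259 and 244 CPM at day 3, a log2 fold change of -0.44 ± 0.07. Aaas, Rae1, Nup98 and Nup88 had log2 fold changes of -0.47, -0.46, -0.31 and -0.25. Nup214, which binds exportin 1 at this site, was at 50.9, 54.2 and 47.4 CPM and then at 52.7, 53.0 and 55.3 CPM, and the groups overlapped. In the nuclear basket all 3 members were lower. Tpr, the main basket filament, went from 298, 323 and 309 CPM to 224, 221 and 208 CPM, a log2 fold change of -0.51 ± 0.06, while Nup153 fell by 0.63 and Nup50 by 0.28.

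**Figure D2:**
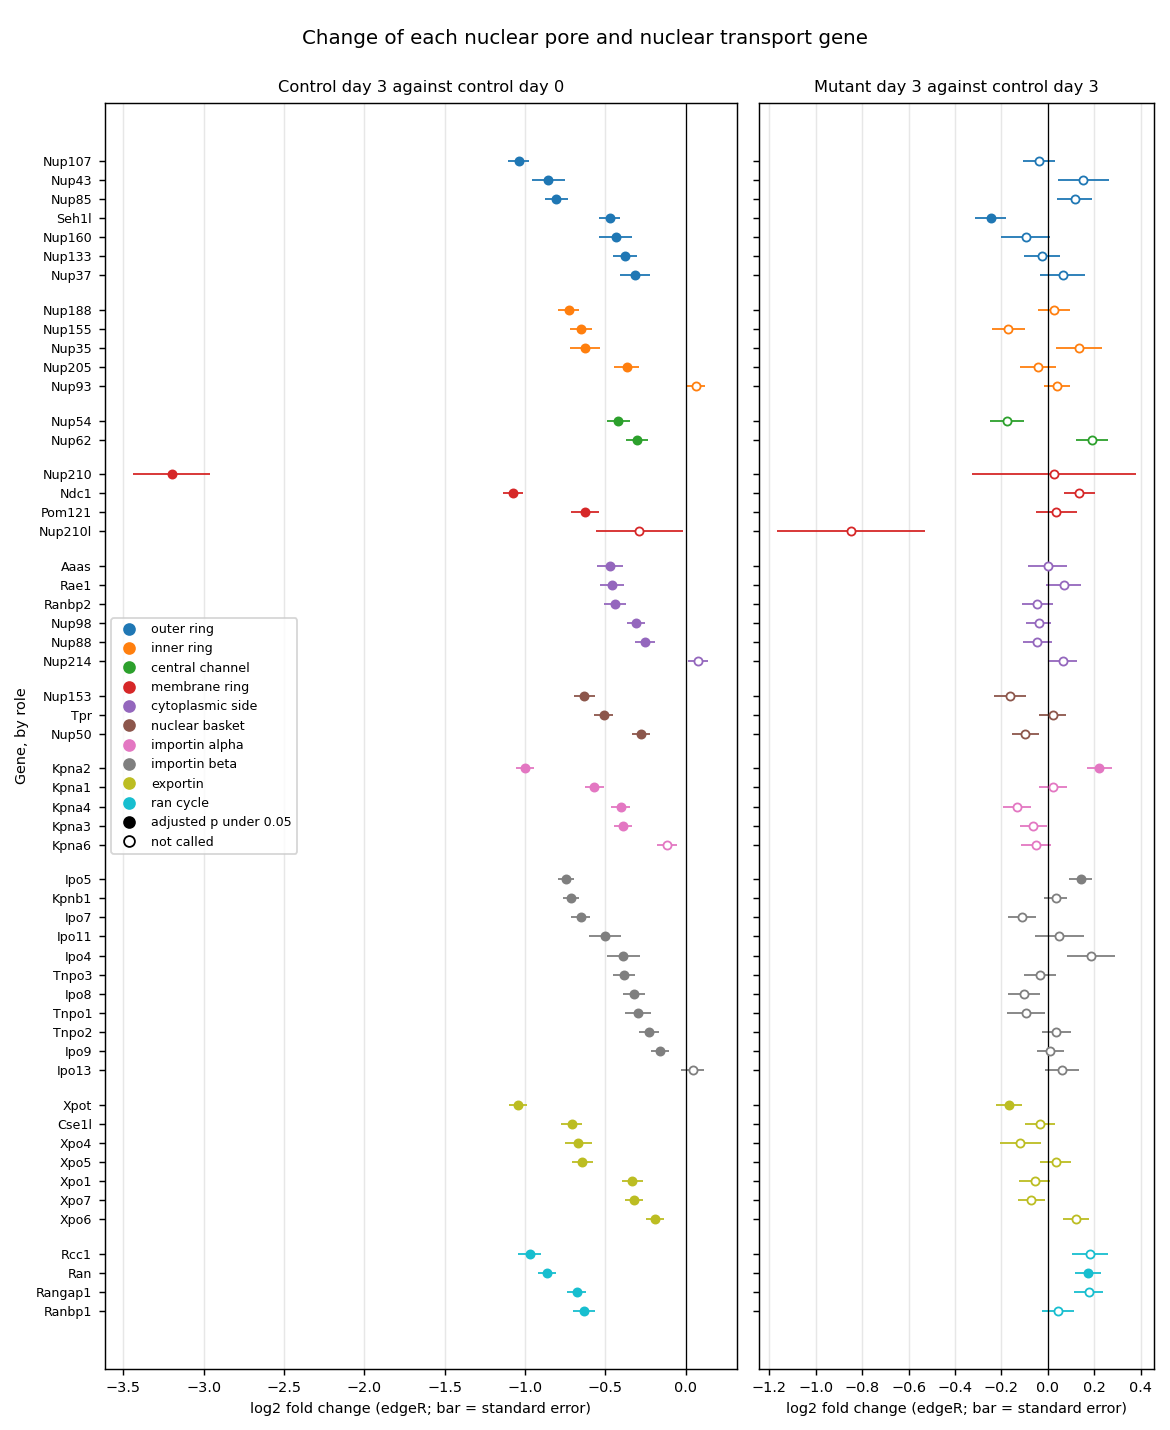
Log2 fold change (edgeR, horizontal; bar = standard error) of each of the 54 tested genes, grouped and coloured by role, for control day 3 against day 0 (left) and mutant against control at day 3 (right). Filled points passed an adjusted p of 0.05; on the left 49 are filled, all below 0, and on the right 5 are.

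Importin alpha proteins bind the classical nuclear localization signal. Kpna2, the form linked with proliferating cells, was at 205, 217 and 226 CPM at day 0 and at 111, 103 and 110 CPM in controls at day 3, a log2 fold change of -1.001 ± 0.05 (edgeR adjusted p = 2.97e-13). Kpna1, Kpna4 and Kpna3 fell by 0.57, 0.40 and 0.39, and Kpna6 did not pass the test at -0.12 ± 0.06. Kpna7, known from oocytes and early embryos, had 1 read in 1 mutant library and none in the other 8. The make-up of the family thus differed between the days. On the FPKM scale, Kpna2 gave 46.3% ± 1.47 of the family's summed level at day 0 and 35.6% ± 1.58 in controls at day 3 (SD, n = 3), while Kpna6 went from 10.5% ± 0.519 to 14.9% ± 0.771 and Kpna3 from 19.8% ± 0.234 to 23.3% ± 0.598. These differences were larger than the spread between libraries but were not tested.

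The importin beta family had 10 of 11 members lower, with a median log2 fold change of -0.39 and a summed level of 2117 ± 34.9 CPM at day 0 and 1487 ± 38.6 CPM in controls at day 3. Kpnb1, importin beta itself and the receptor that works with importin alpha, was at 558, 539 and 534 CPM and then at 330, 335 and 332 CPM, a log2 fold change of -0.71 ± 0.05 (edgeR adjusted p = 2.49e-11). Ipo5, a carrier of ribosomal proteins and histones, was at 348, 337 and 341 CPM and then at 201, 205 and 207 CPM, a log2 fold change of -0.74 ± 0.05. In both genes the day 3 libraries lay close together and far below day 0. Ipo7 and Ipo11 fell by 0.65 and 0.50. Smaller falls of 0.39, 0.39, 0.32 and 0.30 were those of Ipo4, Tnpo3, Ipo8 and Tnpo1, and Tnpo2 and Ipo9 fell by 0.23 and 0.16. Ipo13, which works in both directions, was at 42.4 to 49.0 CPM and then at 44.7 to 51.2 CPM. Its share of the family's summed FPKM was 4.03% ± 0.214 at day 0 and 5.98% ± 0.529 at day 3, while that of Kpnb1 was 30.5% ± 0.163 and 26.8% ± 0.268.

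All 7 exportins were lower, with a median log2 fold change of -0.64. Xpot, the exporter of transfer RNAs, was at 256, 249 and 249 CPM at day 0 and at 118, 124 and 123 CPM in controls at day 3, a log2 fold change of -1.05 ± 0.06 (edgeR adjusted p = 2.33e-13). Xpo1, the exporter of proteins with a leucine-rich export signal, fell less, from 225, 241 and 232 CPM to 181, 188 and 186 CPM, a log2 fold change of -0.33 ± 0.07. On the FPKM scale the exportin with the highest level was Xpot at day 0, with 31.4% ± 0.627 of the family against 24.5% ± 0.729 for Xpo1, and Xpo1 in controls at day 3, with 30.5% ± 0.0461 against 23.9% ± 0.167 (SD, n = 3). That reversal of order exceeded the spread between libraries. Cse1l, which returns importin alpha to the cytoplasm, fell by 0.71, Xpo4 by 0.67 and Xpo5, the exporter of microRNA precursors, by 0.64. Xpo7 and Xpo6, the exporter of actin, fell by 0.32 and 0.19.

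**Figure D3:**
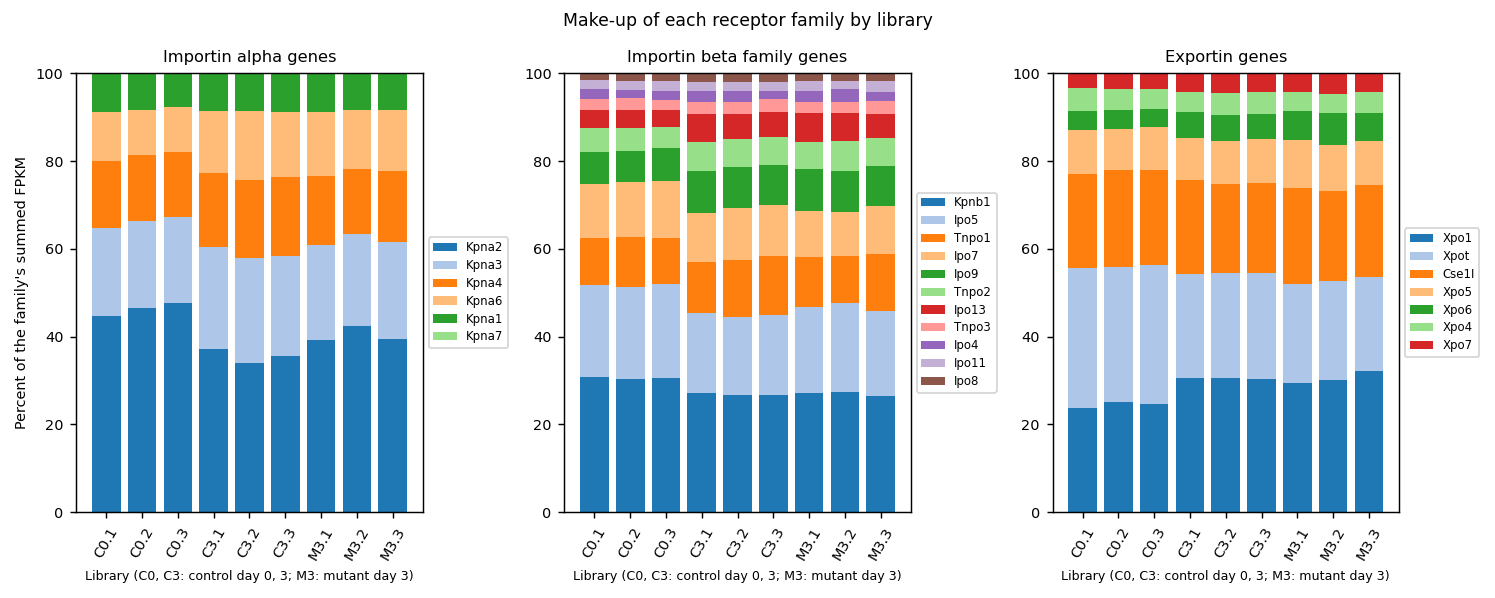
Share of each gene in the summed FPKM of its receptor family (vertical, percent) in each of the 9 libraries (horizontal), for importin alpha, importin beta family and exportin genes. The Kpna2 share is 46.3% on average at day 0, 35.6% in controls at day 3 and 40.4% in the mutant, and Xpot and Xpo1 change places between the days.

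The Ran cycle had the deepest median of the transport groups at -0.77, with all 4 members lower. Ran was at 420, 388 and 416 CPM at day 0 and at 235, 219 and 219 CPM in controls at day 3, a log2 fold change of -0.86 ± 0.06 and a fold of 0.550 (edgeR adjusted p = 5.52e-12). Rcc1, the exchange factor that charges Ran, was at 51.3, 48.8 and 43.9 CPM and then at 24.0, 24.0 and 25.6 CPM, a log2 fold change of -0.97 ± 0.07. No library of day 3 reached the lowest library of day 0 in either gene. Rangap1 and the Ran-binding cofactor Ranbp1 fell by 0.68 and 0.63. Per length, Ran had the highest FPKM of all members, 164 ± 7.75 at day 0 and 82.8 ± 3.15 at day 3 (SD, n = 3), followed by Kpnb1 with 87.7 ± 2.19 and 49.2 ± 0.462.

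Genes outside the symbol rule that work in or beside the pore moved in part with the set. Of 29 tested accessory genes of transport and mRNA export, 16 were lower and 3 higher, with a median log2 fold change of -0.23. Over all genes tested, 32.4% were called lower and 33.1% higher. Alyref, an mRNA export adaptor, fell by 0.96 and Ahctf1, which seeds pores on chromatin, by 0.63, whereas the TREX-2 subunit Sem1 rose by 0.36. Of 15 genes of the lamina and nuclear envelope, 12 were lower and 2 higher, with a median of -0.57. Lmnb1, a B-type lamin, went from 91.3 ± 3.37 to 22.1 ± 3.11 CPM, and Tmpo, a lamina-binding protein gene, from 253 ± 3.71 to 121 ± 4.18 CPM. Tor1a, a lumenal ATPase, rose by 0.48.

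Cell-cycle genes moved over the same days. All 24 were lower in controls at day 3, with a median log2 fold change of -1.60, and their summed level went from 2979 ± 21.4 to 1052 ± 45.0 CPM (SD, n = 3). Mki67, a marker of dividing cells, went from 456 ± 34.3 to 85.0 ± 8.45 CPM. Macrophage markers moved as well, 11 of 15 higher and 4 lower, and 9 of 12 mesenchymal markers were higher and 2 lower. Of all genes tested, 33.1% were higher and 32.4% lower. The part of dividing cells or of macrophages in the fall of the transport genes was not tested.

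**Figure D4:**
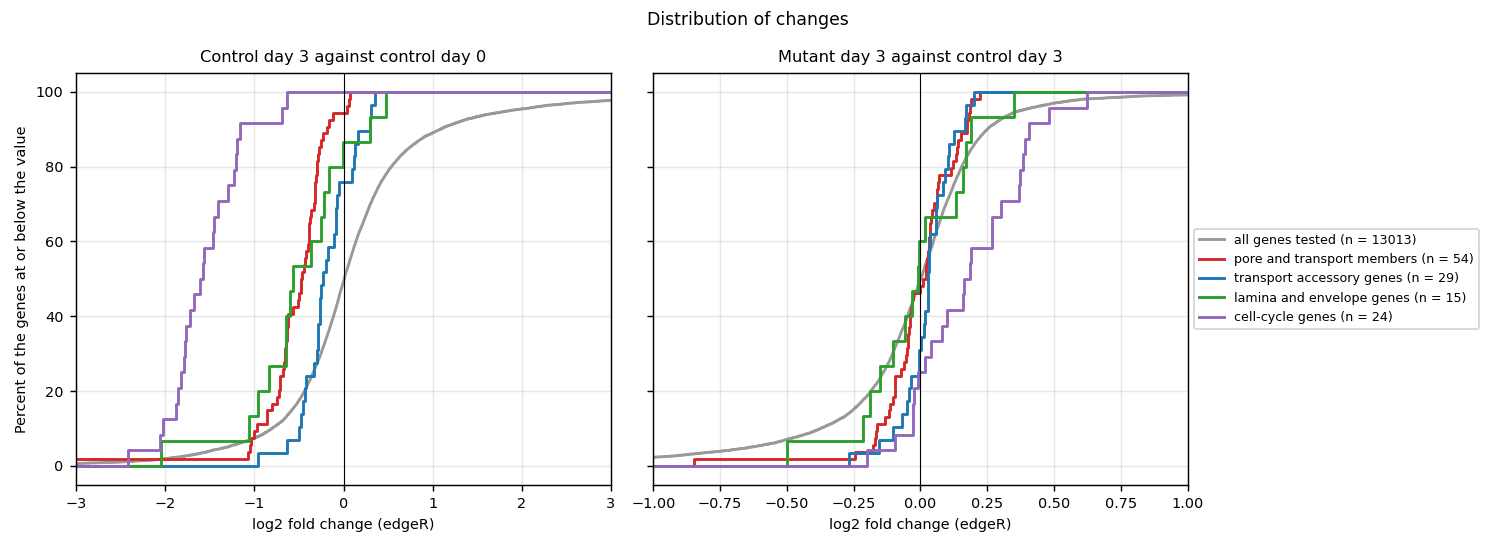
Percent of the genes (vertical) with a log2 fold change at or below the value (horizontal), for all genes tested and for 4 gene lists, in control day 3 against day 0 (left, shown from -3 to 3) and mutant against control at day 3 (right, shown from -1 to 1). On the left the pore and transport genes lie left of all genes and right of the cell-cycle genes, with Nup210 at -3.20 beyond the axis, and on the right they follow all genes closely.

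Between mutant and control at day 3, few of these genes differed. Kpna2, Ran and Ipo5 were higher in the mutant and Seh1l and Xpot lower, and the other 49 of 54 did not pass the test. On build GRCm39 the table places Kpna2 at chr11:106879455-106890367, Ran at chr5:129097133-129101387, Ipo5 at chr14:121148636-121185411, Seh1l at chr18:67907946-67928557 and Xpot at chr10:121423285-121462237. These calls stand beside those over all genes tested, of which 7.95% were called higher and 9.74% lower. The members' median log2 fold change was 0.02, against 0.00 over all genes. For 7 members all mutant libraries lay above all controls and for 7 below, where 16.4% and 17.0% of all genes did so. The summed level of the 56 genes was 4484, 4621 and 4605 CPM in controls and 4617, 4305 and 4767 CPM in the mutant, so the groups overlapped.

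Kpna2 was at 111, 103 and 110 CPM in controls and at 126, 125 and 127 CPM in the mutant. No mutant library overlapped a control at day 3, and the log2 fold change was 0.22 ± 0.05, a fold of 1.17 (edgeR adjusted p = 0.00652). Leaving out control day 3 replicate 2 gave an adjusted p of 0.0622. Its share of the importin alpha FPKM was 40.4% ± 1.79 in the mutant, between the controls of both days. Ran was at 235, 219 and 219 CPM and at 261, 261 and 237 CPM in the mutant, a log2 fold change of 0.17 ± 0.06 (edgeR adjusted p = 0.0329). The lowest mutant library lay only just above the highest control, and leaving out control day 3 replicates 2 or 3 or mutant replicates 1 or 2 took adjusted p to between 0.0689 and 0.143. The other Ran cycle genes did not pass the test, with log2 fold changes of 0.18 ± 0.08 for Rcc1, 0.17 ± 0.06 for Rangap1 and 0.04 ± 0.07 for Ranbp1. Rangap1 (edgeR adjusted p = 0.0563) was called higher by DESeq2, with DESeq2 size factors and without mutant replicate 3. The summed level of the 4 Ran cycle genes was 364, 346 and 352 CPM in controls and 401, 415 and 375 CPM in the mutant, without overlap. Ran itself made up most of that sum in both groups.

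Ipo5 was at 201, 205 and 207 CPM in controls and at 227, 219 and 230 CPM in the mutant, a log2 fold change of 0.14 ± 0.05 (edgeR adjusted p = 0.0484). Of 6 fits without 1 of these libraries, only that without mutant replicate 2 kept the call. Seh1l was at 49.6, 48.4 and 52.2 CPM and at 44.7, 43.3 and 38.6 CPM in the mutant, a log2 fold change of -0.25 ± 0.07 (edgeR adjusted p = 0.0127). Its groups did not overlap, and adjusted p was 0.0732 without control day 3 replicate 3 and 0.0548 without mutant replicate 3. Xpot was at 118, 124 and 123 CPM and at 112, 99.6 and 114 CPM, a log2 fold change of -0.17 ± 0.06 (edgeR adjusted p = 0.0466). Of the 6 fits without 1 of these libraries, that without mutant replicate 3 kept the call for Xpot. DESeq2 and DESeq2 size factors also ended it (adjusted p = 0.0654 and 0.0639), and with only the 2 groups in the fit adjusted p was 0.0704 for Xpot and 0.0672 for Ipo5. Without the filter on low counts Ipo5 had an adjusted p of 0.0891, and with library size alone the adjusted p was 0.0939 for Ipo5 and 0.0592 for Ran.

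**Figure D5:**
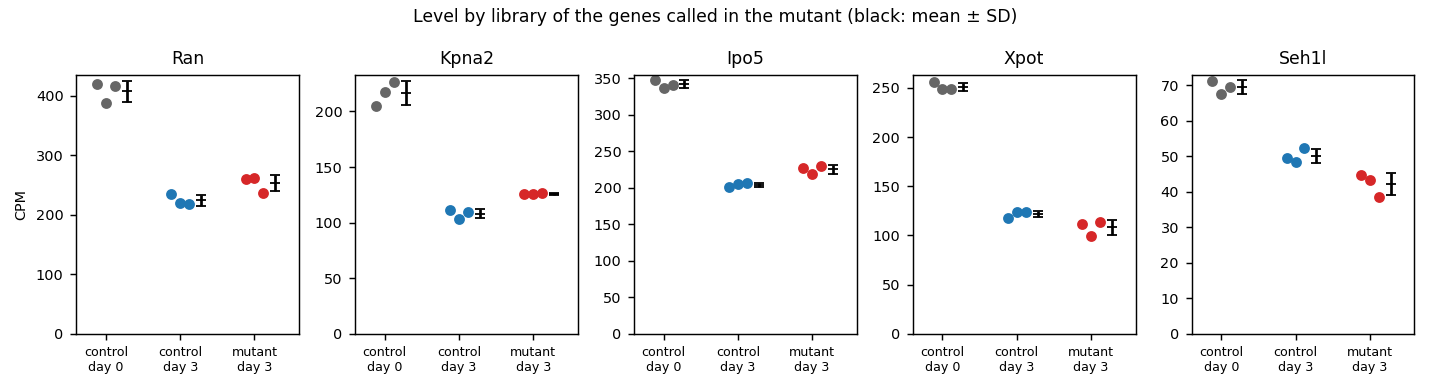
Level (CPM, vertical, from 0) in each library of the 5 genes called between mutant and control at day 3, by group, with the mean ± SD over 3 libraries in black. For each gene the mutant and control points of day 3 do not overlap, and both lie below all day 0 points.

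Among the nucleoporins, Nup62 was at 61.8, 58.2 and 51.8 CPM in controls and at 65.4, 70.0 and 60.9 CPM in the mutant. Its groups overlapped and it did not pass the test (log2 fold change 0.19 ± 0.07, edgeR adjusted p = 0.0612), but it was called higher with DESeq2 size factors and without control day 3 replicate 1 or mutant replicate 3. Nup210l had 0.577 to 1.09 CPM in the mutant, below all controls of day 3, with a log2 fold change of -0.85 ± 0.32 (edgeR adjusted p = 0.0707). Nup54, Nup155, Nup153 and Nup50 also lay below all controls, with log2 fold changes of -0.18, -0.17, -0.16 and -0.10 that did not pass the test. Rcc1, Rangap1, Nup214 and Xpo6 lay above all controls without passing it.

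Libraries of a group were uneven for these genes. Mutant replicate 2 was the lowest of its group for 36 of 54 members and replicate 3 the highest for 29. In controls at day 3, replicate 1 was the lowest for 30 and replicate 2 the highest for 21, and at day 0 replicate 3 was the lowest for 24 and replicate 1 the highest for 27. Nup160 was at 43.0, 32.5 and 51.7 CPM and Tnpo1 at 248, 214 and 294 CPM in the mutant. The log2 ratio of replicate 3 over replicate 2 went with gene length, with r = 0.49 over the 54 members and 0.26 over 12972 tested genes, a description across genes that share the same 2 libraries. Without mutant replicate 3 the counts became 8 lower and 4 higher, where 12.2% and 10.2% of all genes were. Without control day 3 replicate 3 they became 0 lower and 1 higher, where 7.4% and 5.06% of all genes were.

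The counts for neighbouring lists in the mutant stand beside 7.95% higher and 9.74% lower over all genes tested. Of 29 accessory genes 1 was lower, the importin-like gene Ranbp6 at -0.27. In the lamina and envelope list Syne2 was higher and Syne1 and Sun2, which link the envelope to the cytoskeleton, were lower by 0.50 and 0.21. Of 24 cell-cycle genes, 10 were higher in the mutant and 1 lower, with a summed level of 1052 ± 45.0 CPM in controls and 1132 ± 40.4 CPM in the mutant. Of 15 macrophage markers 6 were higher and 0 lower (0 also at an unadjusted p below 0.05 in edgeR), and of 12 mesenchymal markers 2 were higher and 7 lower. The 4 Y-linked genes listed were all lower, with a summed level of 273 ± 11.2 CPM in controls and 101 ± 8.71 CPM in the mutant. In controls at day 0 that level was 280 ± 2.68 CPM. A different share of male cells in the mutant would be confounded with genotype and cannot be told apart from it here. The part of the differences in all these lists in the calls for Kpna2, Ran, Ipo5, Seh1l and Xpot was not tested.

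Induced mutant cells against uninduced controls differ in both genotype and day and share libraries with the comparisons above. There 48 of 54 members were lower and 0 higher, where 34.7% and 33.7% of all genes were, and the median log2 fold change was -0.50. At an unadjusted p below 0.05 in edgeR 1 member was higher, and by DESeq2 0 were. Side by side, the log2 fold changes from day 0 were -1.05 in controls and -1.21 in the mutant for Xpot, -0.47 and -0.72 for Seh1l, -1.001 and -0.78 for Kpna2, -0.86 and -0.69 for Ran, and -0.74 and -0.60 for Ipo5.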

How the data were processed

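The authors deposited 1 table with raw, whole-number counts for each gene in each library and FPKM values next to the counts. Per the submitters' processing notes, cutadapt, HISAT2, HTSeq and build GRCm39 were used (versions, annotation and strand setting: not given in the sources used here). Per the labels' protocols, RNA came from TRIzol and an NEBNext Ultra II kit. The deposited FPKM equalled count over length and library total, and served for levels per length.

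Genes passing filterByExpr (minimum count 10) were fitted with TMM factors (0.960 to 1.07) in edgeR 4.0.16 (R 4.3.3), quasi-likelihood, 1 mean per group over all 9 libraries, with Benjamini-Hochberg adjustment and a threshold of 0.05. These genes took 99.96% or more of every library's reads. SE is the absolute log2 fold change over the root of F. The floor of 3 counts was 0.146 to 0.186 CPM and covers counting error only. No 2 libraries of a group matched within sampling noise. The fit was tested on simulated data, with far fewer changed genes than here and the same spread set for every gene. That run checked the code, not the conditions of these libraries.

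Members and lists were chosen with earlier results of these data known. Values in every library are given for the called members with the smallest p per direction, up to 10 in the induction comparison (10 lower, 0 higher) and up to 8 in the mutant comparison (5 called in all), and for the most abundant per role; other members given that way were chosen after their values were seen. Alternatives were other scalings, no filter, DESeq2 1.42.0, only the groups compared, a replicate block and leaving out each library. The background by level and the spread among mutant libraries were added after the data were seen. Promoter coordinates and sequences are RefSeq's on GRCm38.p6, gene coordinates the table's on GRCm39. One empty line of the table was left out, and protein features were not analysed here. Between genes that overlap, such as Nup43 and Pcmt1 or Tpr and Prg4, reads may be shared.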

Additional observations from a re-analysis of the deposited data

How the results depend on the processing

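In controls, 48 to 50 members were lower at day 3 than at day 0 and 0 higher under every alternative run. With library size alone the members' median was -0.59 for that comparison and -0.64 for the mutant against day 0, and the log2 fold change of Nup93 turned from 0.06 to -0.061. Leaving out 1 library at a time gave -0.56 to -0.46 for the latter median and 0 to 1 members higher, and DESeq2 size factors also gave 1 higher. In the mutant comparison, leaving out 1 library gave 0 to 8 members lower and 0 to 4 higher. The shares of all genes in those fits were 7.13% to 12.2% lower and 4.13% to 10.2% higher. There DESeq2 size factors gave 5 higher and 1 lower, library size alone 1 higher, and DESeq2 and the fit of only the 2 groups 1 lower each. The replicate block gave 49 lower and 0 higher for control day 3 against day 0, and 1 lower and 2 higher in the mutant comparison, where Ipo5 (adjusted p = 0.0755) and Xpot (0.0665) lost the call. Same-numbered libraries did not deviate together (correlations -0.08 to 0.03). Such values cannot show whether same-numbered libraries shared an animal, a culture or a preparation. Of the values of the 5 genes called in the mutant under these alternatives, 39 kept the call, 26 lost it and 0 changed direction; the cause was not tested. Depth limits Nup62cl, Kpna7 and Nup210l, which had few reads.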
